A study of Mus musculus with 4 samples.

Results

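Transcripts of 10 fibroblast growth factor (FGF) genes were followed in ureters dissected from mouse embryos at stage E14.5 (day of gestation). The genes Fgf1, Fgf2, Fgf7, Fgf8, Fgf9, Fgf10, Fgf12, Fgf16, Fgf18 and Fgf20 were taken by name, and every non-control oligo (the DNA probe of an array spot) that carries one of these gene names was included. That gave 18 oligos of 39429 on the array, and 10 genes of 29875. The mutants, called cDKO here for conditional double knockout, carried a Tbx18(cre/+) allele together with Fgfr1(fl/fl), and were likewise Fgfr2(fl/fl). The controls had the genotype Fgfr1(fl/?);Fgfr2(fl/?), in which the other allele of each receptor gene is not specified and no cre allele is listed. All embryos were of the NMRI strain, and floxed receptor alleles were shared by both groups. Cre was expressed from the Tbx18 locus, which is active in the ureteric mesenchyme, so the epithelial cells of a dissected cDKO ureter are not a target of the deletion. Each of 4 arrays held cDKO RNA in one dye and control RNA in the other. Replicates 1 and 3 had cDKO RNA in Cy5 (red), and replicates 2 and 4 had it in Cy3 (green). Replicates 1 and 4 were labelled female and replicates 2 and 3 male. Replicates 1 and 2 shared slide 1, and replicates 3 and 4 shared slide 2. The scan, identified by date and scanner together, differed between the slides. Nothing in the labels ties a replicate to an animal or a pool, so p-values measure only the spread between these 4 pairs of extracts, which may be technical.

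FGFs are secreted ligands that bind receptor tyrosine kinases together with heparan sulfate on the cell surface. Splicing of the receptor genes gives epithelial and mesenchymal receptor forms, and ligands of one tissue commonly signal to the other. Ligands of the FGF7 group come mostly from mesenchyme and act on the epithelial form of FGFR2, while ligands of the FGF9 group come mostly from epithelia or mesothelia and act on mesenchymal receptor forms. Fgf12 is an exception in this set. It encodes an FGF homologous factor, which stays inside the cell and binds sodium channels.

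The oligos that the main values rest on are shown first, since each value reports only the stretch of transcript that its oligo matches. Coordinates are those of build mm9 as the files give them, and sequences run 5′ to 3′ on the transcript strand. For Fgf9, Fgf7 and Fgf10, each measured by a single oligo, the first 30 bases of 60 are given. Fgf9 is at chr14:58728897-58728956 (plus strand), Fgf7 at chr2:125916134-125916193 (plus strand) and Fgf10 at chr13:119580365-119580424 (plus strand).
Fgf9: atcagttcattcacactggtatcatagccc
Fgf7: gctcttcccacaaataatcatgcttatttc
Fgf10: acagcaaatagtgcagacgttggattctta

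Fgf12 had oligos in different parts of its transcript, and both that passed the filter are shown. The first lies at chr16:28160281-28160340 (minus strand), of which 30 bases are given. The second has 60 bases but its ends lie 183340 bases apart, from 28189673 to 28373012 on the minus strand of the same chromosome, so it crosses a splice junction and is given whole.
Fgf12 oligo 1: tttactcaaccatagtgcactgagggtcca
Fgf12 oligo 2: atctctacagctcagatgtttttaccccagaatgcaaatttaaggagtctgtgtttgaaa

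Fgf18 was read by a pair of overlapping oligos, oligo 1 at chr11:33017440-33017499 and oligo 2 at chr11:33017474-33017533 (minus strand). The capitals mark the 26 bases that both contain, which show 0 differences, within 30 bases of each.
Fgf18 oligo 1: ACGAGGAAACTGCGAGAAACCAAAGTcctt
Fgf18 oligo 2: ttgaACGAGGAAACTGCGAGAAACCAAAGT

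Fgf20 and Fgf2 are shown because they fell short of detection and so were not tested. The Fgf20 oligos lie at chr8:41365079-41365138 and chr8:41365111-41365170 (minus strand) and overlap by 28 bases, marked in capitals. They differ there by 1 base, written T23G for oligo 1 against oligo 2, with positions counted from the 5′ end of oligo 1. The brighter Fgf2 oligo crosses a splice junction between 37247934 and 37295153 on chromosome 3 (plus strand).
Fgf20 oligo 1: CAAAGACCTACTGATGTACACTTGATGAat
Fgf20 oligo 2: taCAAAGACCTACTGATGTACACTGGATGA
Fgf2: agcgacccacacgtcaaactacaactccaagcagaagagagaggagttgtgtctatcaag

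Detection separated the set into 7 genes that could be tested and 3 that could not. Each oligo was spotted 4 times per array, which gives 16 spots per genotype over the 4 arrays. An oligo entered the test where 1 of the genotypes showed it on every array, with 3 or more of its 4 spots marked as well above background by the scanner software. By that rule 9 of the 18 oligos were kept, covering Fgf1, Fgf7, Fgf8, Fgf9, Fgf10, Fgf12 and Fgf18. The oligo that stood for each of these genes, the brightest, had all 16 spots above background in both genotypes, so none of the 7 passed only through the group where it was higher. The second Fgf12 oligo passed only in the cDKO channel, with 16 cDKO and 13 control spots above background.

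**Figure D1:**
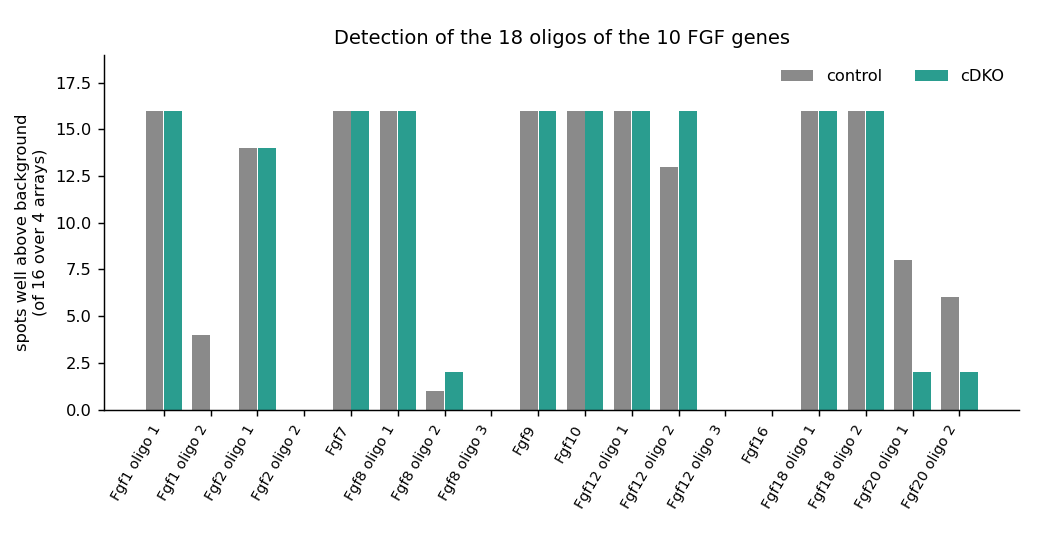
Number of spots well above background (y axis, out of 16 over 4 arrays) for each of the 18 oligos (x axis; oligos of a gene are numbered from the brightest), with control in grey and cDKO in green. The first oligos of Fgf1, Fgf7, Fgf8, Fgf9, Fgf10, Fgf12 and Fgf18 reach 16 in both genotypes, while Fgf16 is at 0 in both.

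Fgf9 rose in the cDKO ureters. It encodes a ligand that other organs make in epithelium or mesothelium and that acts on mesenchyme. Its log2 level in the control channels was 10.32, 10.37, 10.07 and 10.13 on replicates 1 to 4, and in the cDKO channels it was 11.25, 11.10, 11.12 and 10.78. The genotypes did not overlap, the lowest cDKO level lying above the highest control level. The log2 ratio of cDKO over control was 0.93, 0.72, 1.06 and 0.65 on the 4 arrays. It was thus largest on the arrays where cDKO RNA was in red, but the gene's own dye effect was 0.15 on the log2 scale and had an unadjusted p of 0.0803 in limma. None of the 7 tested genes had a dye effect at an unadjusted p under 0.05, against 8.8% of all genes. The fitted ratio was 0.84 ± 0.07 (SE, n = 4), or 1.79-fold, with an adjusted p of 0.0213 in limma and a 95% interval from 0.66 to 1.02. Among the 19365 genes tested, Fgf9 was 11th by p and 56th by size of rise. Across all of them 0.852% were called at an adjusted p under 0.05 (0.553% as rises and 0.3% as falls), against 2 of the 7 FGF genes, both rises. The 4 spots of Fgf9 within an array differed by a standard deviation (SD) of 0.04 to 0.09 in log2 ratio, smaller than the SD of 0.19 between arrays. The call was lost with a sex term in the fit (adjusted p = 0.0638 in limma), within slide 2 (0.341) and without the filter on dim oligos (0.0833). The ratio of Fgf9 stayed between 0.81 and 0.88 in all 16 alternatives, with adjusted p-values from 0.000534 to 0.341 in limma. Changed model terms, the filters and the mean over its single oligo leave the ratio at 0.84 by design, so its steadiness there was fixed in advance.

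The other genes of the FGF9 group could not be tested. Fgf16, known from heart development, had 0 of 16 spots above background in either genotype at its single oligo. Fgf20, which with Fgf9 maintains nephron progenitors in the kidney, was partly detected in controls: 8 of 16 spots were above background at oligo 1 and 6 of 16 at oligo 2. In the cDKO channels 2 of 16 spots were above background at each. The control spots above background came mostly from slide 1, with 4, 4, 0 and 0 spots on replicates 1 to 4 at oligo 1. Its log2 ratios there were -0.25, -0.13, 0.10 and -0.10, and the levels of the genotypes overlapped. With no cDKO array at 3 spots above background, the cDKO level has only a bound of 6.68 on the log2 scale. The control mean of 6.65 did not exceed it, so no fold is given.

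The genes of this set that belong to the FGF7 group, Fgf10 and Fgf7, were not called. Fgf10 encodes the mesenchymal ligand that drives branching of lung and other epithelia. Its control levels were 9.59, 9.75, 9.83 and 9.93 (log2), and its cDKO levels were 10.01, 10.08, 9.97 and 10.03. The genotypes did not overlap, although the highest control and the lowest cDKO level were close. The ratios were 0.42, 0.33, 0.15 and 0.11, and the fit gave 0.25 ± 0.09 with an adjusted p of 0.191 in limma and a 95% interval from 0.04 to 0.46. The ratio was larger on slide 1 (0.37) than on slide 2 (0.13), a difference with an unadjusted p of 0.114.

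Fgf7, or keratinocyte growth factor, turned direction between the slides. Control levels were 11.65, 11.64, 11.53 and 11.26 (log2), and cDKO levels were 11.25, 11.21, 11.62 and 11.53. The cDKO level was lower than control on replicates 1 and 2 and higher on replicates 3 and 4, so the groups overlapped. The ratios were -0.40, -0.43, 0.09 and 0.27, which average to -0.42 on slide 1 and 0.18 on slide 2. This difference of -0.60 between slides had an unadjusted p of 0.00281 and an adjusted p of 0.123 in limma. Over all genes, 14.3% had an unadjusted p under 0.05 for that difference and 0.893% were called. Slide coincides with scan and with the particular extracts, which cannot be told apart here. The fit over all arrays gave -0.12 ± 0.14 (adjusted p = 0.685 in limma; 95% interval from -0.45 to 0.21). Within an array the 4 Fgf7 spots differed by an SD of 0.02 to 0.12, much less than the 0.35 between arrays.

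**Figure D2:**
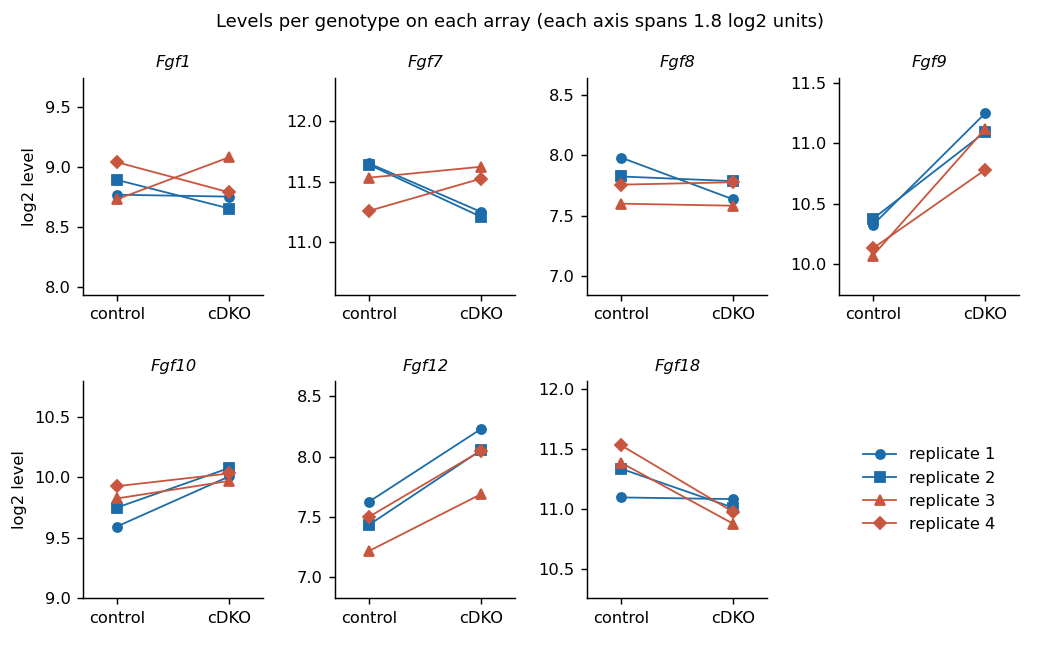
Log2 level (y axis) in the control and cDKO channel (x axis) of each array for the 7 tested genes, with blue for slide 1 and red for slide 2. A line joins the channels of an array, and each panel spans the same log2 range. All lines rise for Fgf9, Fgf10 and Fgf12, all fall for Fgf18 (by 0.01 on replicate 1), and those of Fgf7 go down on slide 1 and up on slide 2.

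Of the FGF8 group genes in this set, neither Fgf18, with ratios below 0 on all arrays, nor Fgf8 was called. Fgf18 is a ligand known from bone and lung, where it signals to mesenchymal receptor forms. At oligo 1 its control levels were 11.10, 11.34, 11.39 and 11.53 (log2), and its cDKO levels were 11.08, 11.01, 10.88 and 10.98. The genotypes did not overlap, but the levels of replicate 1 differed by only 0.01. The ratios were -0.01, -0.33, -0.51 and -0.56, and the fit gave -0.35 ± 0.10 with an adjusted p of 0.153 in limma and a 95% interval from -0.60 to -0.10. The second oligo gave -0.05, -0.32, -0.68 and -0.57 on the same arrays. Between the oligos the ratio differed by 0.06 ± 0.08 (SD, n = 4), so the spread of Fgf18 between arrays was shared by both oligos, which read the same RNA and share 26 bases. The slides averaged -0.17 and -0.53. With a slide term in the fit Fgf18 was called (adjusted p = 0.0191), in a fit that takes the slide difference out of the error. That fit called 2418 of all 19365 genes, against 165 as reported. Without replicate 3 its ratio was -0.23, over 1.5 times smaller.

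Fgf8, which drives outgrowth of limb and other buds and nephron formation, was detected at 1 of its 3 oligos, at chr19:45811355-45811414 (minus strand). Its control levels of 7.98, 7.83, 7.60 and 7.76 (log2) overlapped with its cDKO levels of 7.63, 7.79, 7.58 and 7.78. The ratio was -0.35 on replicate 1 and -0.04, -0.02 and 0.02 on the others. The fit gave -0.10 ± 0.08 (adjusted p = 0.583 in limma; 95% interval from -0.30 to 0.11). The other oligos had 1 and 0 control spots and 2 and 0 cDKO spots above background, of 16.

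Fgf1 and Fgf2 form a group whose proteins lack a classical signal peptide. Fgf1, which can bind every FGF receptor, was detected at an oligo on chromosome 18 from 38998337 to 38998396 (mm9, minus strand). Its levels overlapped, with controls at 8.77, 8.89, 8.73 and 9.04 and cDKO at 8.75, 8.65, 9.08 and 8.79 (log2). Its ratios were -0.02, -0.24, 0.35 and -0.25, of which only replicate 3 lay above 0. The fit gave -0.04 ± 0.09 (adjusted p = 0.854 in limma; 95% interval from -0.25 to 0.17). A second Fgf1 oligo had 4 of 16 control spots and 0 of 16 cDKO spots above background, and the bound gave no fold.

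Fgf2, or basic FGF, missed the detection rule narrowly. At its brighter oligo 14 of 16 spots were above background in each genotype, and the missing ones were on replicate 3 in the cDKO channel and on replicate 4 in the control channel. Both were the Cy5 channel of an array on slide 2. The levels were 7.04, 6.94, 6.98 and 7.03 in controls and 7.05, 7.05, 6.97 and 7.04 in cDKO (log2), which overlapped. The ratios were 0.002, 0.11, -0.01 and 0.01, a mean of 0.03 ± 0.06 (SD, n = 4). In the authors' deposited table the same oligo stood at -0.048, 0.305, -0.15 and 0.037 on the log2 scale. The spread of its ratio therefore depends on the processing. The other Fgf2 oligo had 0 spots above background.

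Fgf12 rose at 1 of its oligos and was the second gene of the set to be called. At oligo 1 the control levels were 7.63, 7.43, 7.22 and 7.5 (log2), and the cDKO levels were 8.23, 8.06, 7.69 and 8.05. The genotypes did not overlap. The ratios were 0.61, 0.62, 0.47 and 0.55, with an SD of 0.07 between arrays. Of all genes tested, 6.86% had a smaller SD. The fit gave 0.56 ± 0.07, or 1.48-fold, with an adjusted p of 0.0374 in limma and a 95% interval from 0.39 to 0.74.

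The other Fgf12 oligos are given as a description. The junction-crossing oligo passed the filter only through the cDKO channel, where it was the higher, so nothing is read from its fit or its direction. Its control levels were 6.88, 6.87, 6.92 and 6.91, its cDKO levels 7.16, 7.03, 7.14 and 7.21 (log2), and its ratios 0.28, 0.16, 0.23 and 0.30. In the authors' deposited table the same oligo stood at 0.70, 0.41, 0.38 and 0.70 on the log2 scale, so the size of its ratio depends on the processing. The remaining oligo, at chr16:28157936-28157995, had 0 of 16 spots above background in either genotype. At oligo 1 the size of the ratio also moved with the processing. The scanner software's own log ratios gave 0.88 (adjusted p = 0.0289 in limma), and the authors' deposited value table gave a ratio of 0.89 (0.0258), both over 1.5 times the reported log2 ratio. Without background correction it was 0.61. Which step of the processing makes the difference was not tested. The call was lost in 8 of 16 alternatives, among them leaving out replicate 1 (adjusted p = 0.151 in limma), 2 (0.0793) or 3 (0.0516). Another was the mean of its oligos (0.40, adjusted p = 0.0585). That mean includes the junction-crossing oligo, so nothing is read from it. Over the 16 alternatives the adjusted p ranged from 0.00243 to 0.414.

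**Figure D3:**
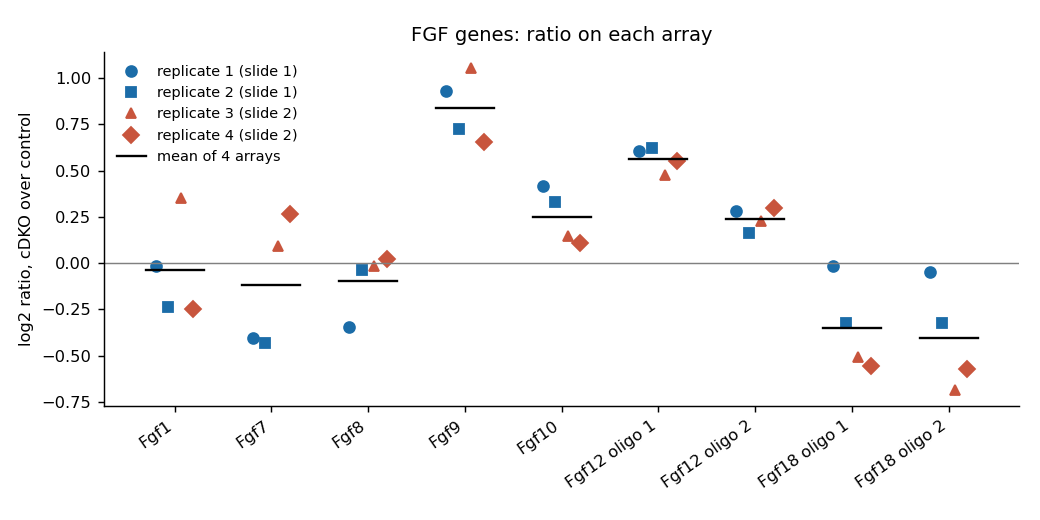
Log2 ratio of cDKO over control (y axis) on each of the 4 arrays for the 9 kept oligos (x axis), with symbols for replicates, blue for slide 1 and red for slide 2. The black bars are means. Fgf9 lies between 0.65 and 1.06 and oligo 1 of Fgf12 between 0.47 and 0.62, while Fgf7 spreads from -0.43 to 0.27.

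The 7 tested genes did not lie on one side of 0: the fitted ratio was above 0 for 3 of them, against 52.7% of all genes. Of them 3 had ratios above 0 on all 4 arrays (Fgf9, Fgf10 and Fgf12) and 1 had ratios below 0 on all 4 (Fgf18), against 25.2% of all genes with 1 sign throughout (13.4% above 0 and 11.8% below). The same 4 genes had an unadjusted p under 0.05, 3 higher and 1 lower, against 19.6% of all genes (11.7% higher and 7.88% lower). They also had levels that did not overlap between the genotypes, against 8.04% of all genes (4.71% with cDKO above and 3.33% with cDKO below). The slides had ratios of opposite sign for Fgf1, Fgf7 and Fgf8, which is 3 of 7 genes against 39% of all. The median ratio over the 7 genes was -0.04, beside 0.009 over all genes, and the median size of a ratio was 0.25 beside 0.10. An exact sign-flip test over the 4 arrays gave p = 0.125 (two-sided) for each of Fgf9, Fgf10, Fgf12 and Fgf18, which is the smallest value that 4 arrays allow. Any gene with 1 sign on all 4 arrays gets this value, so it adds nothing to the count of signs. For Fgf1, Fgf7 and Fgf8 it gave 0.875, 0.5 and 0.375. On simulated arrays with the same design, the fit recovered 64.2% of genes changed 1.5-fold, so changes of the size of Fgf10 or Fgf18 can be missed. The simulated noise held no slide or dye effect, so the share may differ on the real arrays.

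The set was also read by sex label. The cDKO effect on female-labelled less male-labelled arrays was -0.19 for Fgf1, 0.10 for Fgf7, -0.14 for Fgf8, -0.10 for Fgf9, 0.02 for Fgf10, 0.03 for Fgf12 and 0.13 for Fgf18. None of these 7 differences was called in limma (unadjusted p from 0.379 to 0.915), and 1.07% of all genes had an unadjusted p under 0.05. A sex difference and a dye bias that differs between slides give the same signs over the 4 arrays and cannot be told apart.

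Among the other genes of the FGF pathway, 1 was called. It was Fgfr2, one of the targeted receptors, which rose (log2 ratio 0.59 ± 0.07, adjusted p = 0.0356 in limma), against 0.852% of all genes called and 0.553% as rises. Its ratio stayed between 0.56 and 0.62 in 16 alternatives, of which those that change model terms cannot move it in this balanced design. The call was lost in 7 of the 16, among them within slide 1 (adjusted p = 0.06 in limma) and without replicate 1 (0.146) or 2 (0.065). In the same fit Fgfr1 stood at -0.40 ± 0.10 (adjusted p = 0.117), and at -0.22 within slide 1. Whether these oligos lie in the deleted parts was not examined, so they do not check the genotypes. Of the receptor and co-receptor list, 6 of 7 genes were tested, with a median of 0.10 and 1 called rise.

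Counts at an unadjusted p under 0.05 in these lists stand beside 19.6% of all genes (11.7% higher and 7.88% lower). The other FGF genes had 7 of 12 tested and 0 called, with a median of 0.11, and 1 had an unadjusted p under 0.05. That was Fgf5, a ligand that ends hair growth, at ratios of 0.92, 0.44, 0.38 and 0.29 and a fit of 0.51 ± 0.10 (adjusted p = 0.0846), followed by Fgf22 at 0.20 ± 0.11 (0.347). Fgf5 was called without replicate 3 (0.64, adjusted p = 0.0461 in limma), and Fgf22 stood at 0.06 without replicate 2 and 0.34 without replicate 4. Among binding and adaptor genes 6 of 7 were tested and 0 called, with 4 at an unadjusted p under 0.05, all higher, and a median of 0.22. Fgfbp3, which encodes a protein that carries FGFs off the matrix, stood at 0.32 ± 0.10 (adjusted p = 0.172) and Frs2, the adaptor that docks on FGF receptors, at 0.32 ± 0.11 (0.185). Frs2 stood at 0.20 without replicate 1.

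The readouts of FGF signalling gave no call in limma either. Of the feedback inhibitors 10 of 11 were tested and 0 called, with 2 at an unadjusted p under 0.05 and a median of 0.02. Spry1 stood at 0.41 ± 0.08 (adjusted p = 0.0669) and Il17rd, which encodes the receptor-bound inhibitor SEF, at -0.23 ± 0.07 (0.172). Of the 7 transcription targets all were tested and 0 called, with 2 at an unadjusted p under 0.05 and a median of 0.21. Etv5 stood at 0.35 ± 0.10 (0.146) and Etv1, also of the ETS family, at 0.46 ± 0.15 (0.177). Etv1 stood at 0.22 without replicate 1 and was called at 0.69 without replicate 3 (adjusted p = 0.0374 in limma). The immediate early genes of this list, named after their values were seen, differed between slides. Fos stood at -1.99, -1.99, 1.75 and 0.25 (adjusted p of the slide difference 0.0045 in limma) and Egr1 at -0.61, -0.53, 1.305 and 0.37 (0.0348). With a slide term 8 genes of these lists were called, among them Fgf5, Fgfbp3, Spry1, Etv1, Etv5 and Fgfr1. The same fit called 2418 of all 19365 genes, against 165 as reported.

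**Figure D4:**
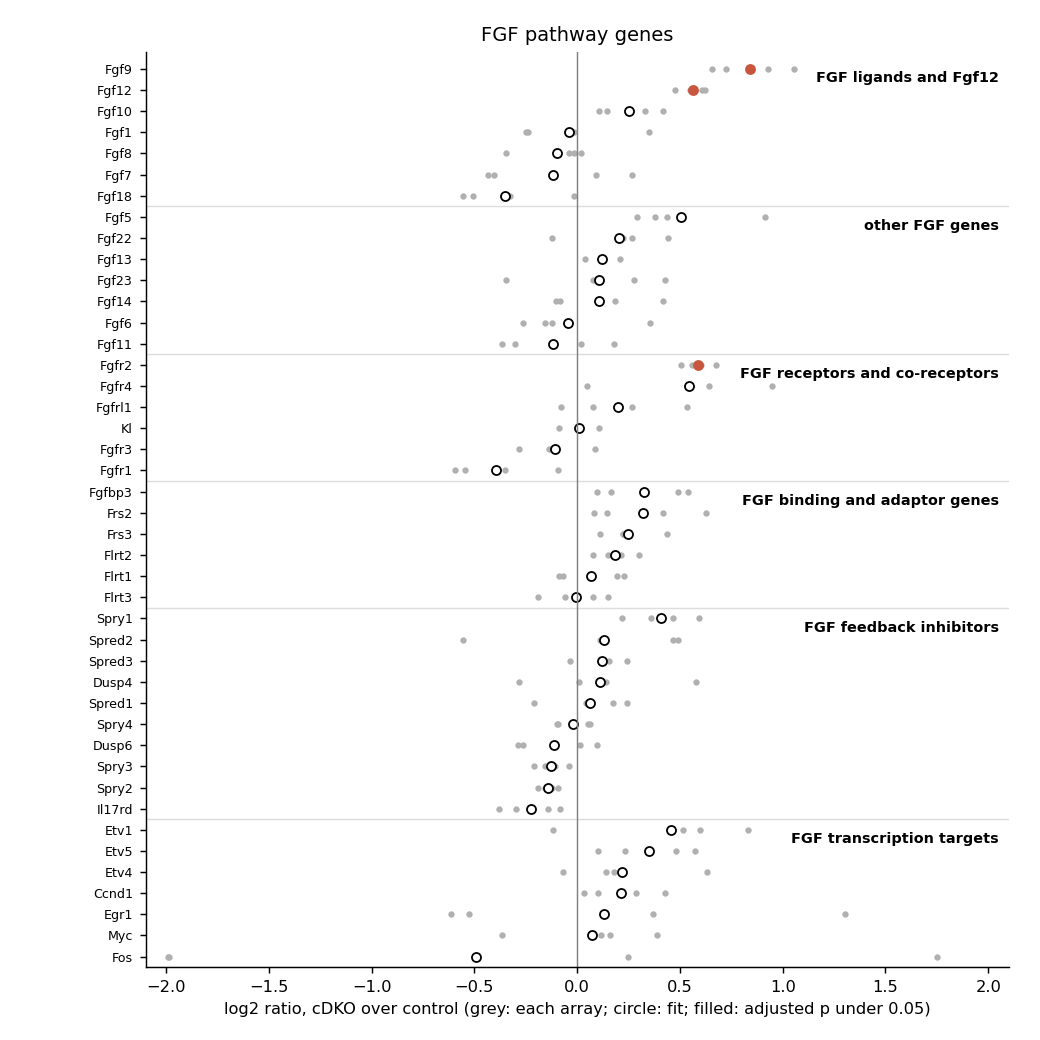
Log2 ratio of cDKO over control (x axis) for each tested gene of the FGF lists (y axis), sorted within a list, with grey points for the 4 arrays and circles for the fitted value. The filled circles, at an adjusted p under 0.05, are Fgf9 (0.84), Fgf12 (0.56) and Fgfr2 (0.59).

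Genes whose 4 ratios lay closest to those of the called FGF genes were named by the root mean square difference over the 4 arrays. Closest to Fgf9 was Nell1, which encodes a secreted protein of bone formation, at 0.88, 0.75, 1.00 and 0.73 and a difference of 0.05. It was followed by the potassium channel gene Kcnd3 (0.12), the endocytic receptor gene Lrp2 (0.16), the formin gene Fhod3 (0.17) and Dcdc2a (0.17). Closest to Fgf12 were the kinesin gene Kif26b (0.01), the cell adhesion gene Cxadr (0.04), Blnk (0.05), the adaptor gene Grb14 (0.06) and Traf3 (0.08). With 4 arrays such closeness can reflect little more than a like mean. Only Nell1 and Kif26b also had the same order of arrays as the FGF gene they lie closest to.

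The defining markers of the labelled tissue were present. All 13 urothelium, 8 ureteric mesenchyme and 6 smooth muscle markers were detected and tested. Counts in these lists, and in those of other cells, stand beside the shares of all genes. Of all genes 0.852% were called and 52.7% had a ratio above 0. An unadjusted p under 0.05 in limma was reached by 19.6% (11.7% higher and 7.88% lower). The mesenchyme markers all had ratios above 0, with a median of 0.35 and a mean log2 level of 12.90 to 13.48 in controls and 13.33 to 13.72 in cDKO. The genotypes' mean levels overlapped across arrays, a comparison that leaves out the pairing of the channels on each array. The array medians were 0.48, 0.52, 0.09 and 0.45. Of the 8 genes 7 had ratios above 0 on all 4 arrays, against 13.4% of all genes. All 8 were higher at an unadjusted p under 0.05 in limma, against 11.7% of all genes. Ptch1, the hedgehog receptor, was called among them (1 of 8). Urothelium markers lay below 0 for 10 of 13, with a median of -0.05 and a mean of -0.30. Their mean levels were 12.24 to 12.46 in controls and 11.81 to 12.27 in cDKO, which overlapped. At an unadjusted p under 0.05 in limma 6 were lower and 1, Shh (0.53), was higher. The lower ones were Krt19, Grhl3, Upk1a, Upk1b, Upk2 and Upk3a (-0.55 to -1.43). Cdh1 (-0.02), Epcam (-0.05) and Krt8 (-0.02) lay near 0. Upk1b, a uroplakin, was called down (1 of 13). Of the smooth muscle markers 0 of 6 were called, with levels of 9.80 to 10.96 and 9.90 to 11.17. At an unadjusted p under 0.05 in limma were 3 of them, 2 higher and 1 lower. In such bulk tissue, fewer cells of a type and less RNA per cell cannot be told apart.

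Among markers of other cells, the erythroid, endothelial and macrophage lists had mean levels that did not overlap between the genotypes, while those of mesothelium and kidney overlapped. Mean log2 levels of the erythroid list were 11.99 to 12.23 in controls and 11.61 to 11.86 in cDKO, with 6 of 6 below 0 and Hba-x and Hbb-bh1, embryonic globins, called down. Endothelial levels were 11.07 to 11.39 and 10.82 to 10.998, with 5 of 6 below 0 and Emcn called down. Macrophage levels were 10.89 to 11.11 and 10.52 to 10.83, with 5 of 6 below 0 and Fcer1g called down. For mesothelium, a site of Fgf9 expression in other organs, 3 of 4 tested markers lay below 0, with levels of 9.60 to 9.90 and 9.28 to 9.69, and Msln was called down (-0.82 ± 0.09, adjusted p = 0.0282 in limma). Kidney markers lay above 0 for 6 of 6 tested, with a median of 0.16, levels of 9.96 to 10.42 in controls and 10.24 to 10.42 in cDKO, and 0 called (2 at an unadjusted p under 0.05 in limma). Nphs1 did not pass the filter. At an unadjusted p under 0.05 in limma were 5 erythroid, 4 endothelial, 4 macrophage and 3 mesothelium markers, all lower. The neuron and glia list had 0 of 6 called and array medians from -0.56 to 0.70. In the skeletal muscle and the gonad and adrenal lists 0 of 4 were called each. Of the 4 cartilage markers Hapln1 was called down (-0.54 ± 0.08). The other 3 lay above 0, the largest of them Col2a1 at 0.64 ± 0.11 (adjusted p = 0.0578 in limma), above 0 on all 4 arrays. The part of these differences in the FGF results was not tested.

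The values of 5 FGF genes under each processing alternative are plotted beside those reported. Fgf9, Fgf10, Fgf12 and Fgf18 kept their direction in all 16 alternatives. Each of them had 1 sign on every array, so fits that leave out arrays could not turn it. Changed model terms and filters left the fitted ratio as it was in this balanced design. For those alternatives the kept direction was fixed in advance and is no separate support. Fgf7 changed sign in 3 of them, Fgf1 in 2 and Fgf8 in 1.

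**Figure D5:**
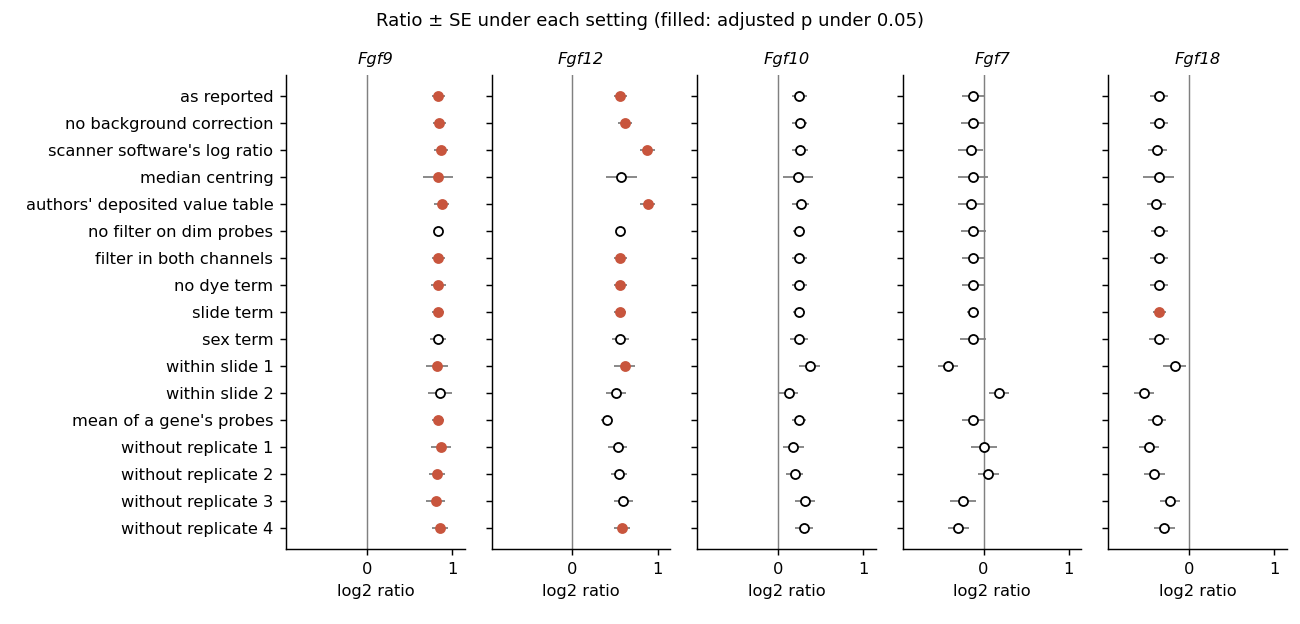
Fitted log2 ratio of cDKO over control with its SE (x axis) for Fgf9, Fgf12, Fgf10, Fgf7 and Fgf18 as reported and under 16 alternatives (y axis), filled where the adjusted p was under 0.05. Fgf9 is filled in 13 alternatives and Fgf12 in 8, Fgf18 only with the slide term, and Fgf7 lies on either side of 0.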

How the data were processed

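Gene expression was measured on 4 two-colour Agilent arrays. Per the labels' protocols, total RNA was extracted with peqGOLD RNAPure and 150 ng was amplified and labelled with Cy3 or Cy5. Agilent Feature Extraction 10.7.3.1 was used, per the file headers and the submitters' processing notes. The deposited scanner files hold spot intensity and local background intensity per channel, and, per the file headers, log10 ratios of signals the software had background-subtracted and dye-normalized. The authors' deposited value table holds a signed fold per oligo, treated as a score and used as an alternative, with its centring unknown. Other flags, per the file headers, mark spots well above background.

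Intensities were corrected with normexp (offset 50) and ratios normalized by loess (span 0.3), with control and outlier spots at weight 0. Spots of an oligo were averaged. Levels are log2 intensities after quantile scaling (Aquantile). The filter kept 25591 oligos (64.9%), the brightest standing for each of 19365 genes. Genes were named through RefSeq accessions (28328 oligos), current symbols (3400) or synonyms (243), and 7458 kept the file's name. The model, run in limma 3.58.1 under R 4.3.3, had dye and genotype terms (two-sided; Benjamini-Hochberg over all genes; called under 0.05), with 2 residual and 4.53 prior degrees of freedom. Tested on simulated data with 200 changed of 19365 genes for this comparison, the fit recovered 64.2%, 98.5% and 100% of genes changed 1.5-, 2- and 3-fold. Of the calls it made there, 7.89% fell on genes left unchanged. The simulated noise was independent between arrays, with no slide or gene-specific dye effect, so these shares may not hold for the real arrays.

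Median spot intensity was 138.7 to 383.4 (cDKO) and 169 to 417.3 (control), and no spot was saturated (0). The number of arrays limits the precision. The named genes are all 10 FGF genes, Fgfr1 and Fgfr2, up to 4 called genes (or the 2 of smallest p) per other FGF list, and the 5 genes closest to each called FGF gene. The FGF genes and the lists were chosen with earlier results of these data known. The markers given by name were picked after their values were seen.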

Additional observations from a re-analysis of the deposited data

Results flagged for a closer look

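The ratio of Fgf8 on replicate 1, at -0.35, lay apart from the other 3 arrays, which stood at -0.04, -0.02 and 0.02. It was the only one of 27 sets of 4 values (ratios, control levels and cDKO levels of the 9 kept oligos) in which a single array stood out by Dixon's criterion, and chance marks about 1 in 20. The fitted ratio of Fgf8 was -0.10 with all arrays and -0.013 without replicate 1, and it was called in neither fit.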

How the results depend on the processing

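The count of called genes (165) was 255 with median centring, 258 without a dye term, 2418 with a slide term, 551 within slide 1, 2 with a sex term, 1 without the filter on dim oligos and 0 within slide 2 (limma; 1346 at an unadjusted p under 0.05), and 34 to 403 without single replicates. Rises were 64.8% of calls as reported and 56.5% with the authors' deposited value table. Of the 10 FGF genes (2 called, Fgf9 and the intracellular factor gene Fgf12), 1 was called with median centring and with the mean of a gene's oligos, 0 without the filter, with a sex term and within slide 2 (4, 3 and 3 at an unadjusted p under 0.05 in limma), and 1 to 2 without single replicates. Of the other FGF pathway genes (1 called), 8 were called with a slide term, 3 within slide 1 (Fgfr2 not among them), and 0 with median centring, without the filter, with a sex term and within slide 2 (7, 15, 10 and 7 at an unadjusted p under 0.05 in limma), and 0 to 4 without single replicates. Fgf9 lost its call without the filter (0.84), with a sex term (0.84) and within slide 2 (0.86). Fgf12 lost it with median centring (0.57), without the filter (0.56), with a sex term (0.56) and within slide 2 (0.51). It was also lost with the mean of its oligos (0.40), but that mean includes the junction-crossing oligo, so nothing is read from it. Without replicates 1, 2 and 3 Fgf12 lost its call too (range without single replicates 0.53 to 0.60). Fgf18 gained one with the slide term (-0.35). Within slide 2 the sign turned for Fgf1 (0.049), Fgf7 (0.18) and Fgf8 (0.001). It also turned for Fgf1 without replicate 1 (0.052; range -0.13 to 0.052) and for Fgf7 without replicates 1 (0.004) and 2 (0.056; range -0.296 to 0.056). The cause of these changes was not tested. Fits within a slide or without a replicate use fewer arrays, and their counts of called genes lay on both sides of 165. The unfiltered fit tests 29875 genes. The fit is already paired, since each array compares 1 cDKO with 1 control extract and gives 1 ratio per replicate. No further pairing was possible. Signal over background limits Fgf2, Fgf16 and Fgf20, which were not tested.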
